A study of Mus musculus with 4 samples.

Results

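The genes described here are the 7 cyclin-dependent kinase (CDK) inhibitors of the Cip/Kip and INK4 families, chosen by name from arrays of mouse blood stem and progenitor cells. The Cip/Kip family has 3 members, Cdkn1a (product p21), Cdkn1b (p27) and Cdkn1c (p57), and the INK4 family has 4, Cdkn2a (p16 and, from another reading frame, p19ARF), Cdkn2b (p15), Cdkn2c (p18) and Cdkn2d (p19). For 6 of the 7 the array held at least 1 probe set with that gene symbol alone, 7 probe sets in all of the 21789 with a single symbol, which stand for 19938 genes, because Cdkn1b had 2. The remaining gene, Cdkn1a, had 1 probe set, which the annotation lists for 4930567H12Rik as well. RNA came from sorted bone marrow LSK cells, the lineage-negative, Sca-1-positive, Kit-positive fraction that holds blood stem cells and the earliest progenitors, of mice on a C57BL/6 background. In the 2 null arrays, both of LSK/Flt3- cells, the genotype was Vav-Cre/Hdac3Flox/-, so that the histone deacetylase gene Hdac3 was deleted in blood cells by a Cre recombinase under the Vav promoter. The other 2 arrays held wild-type cells, 1 of LSK/Flt3- and 1 of LSK/Flt3+ cells, and the sources used here do not say whether those mice carried Cre or a floxed allele. Flt3 is a cytokine receptor that appears as LSK cells gain lymphoid potential. Cells were pooled from 5 to 30 mice, and the sources used here give neither the animals' age nor whether the 2 null pools were of different mice, so p-values measure the spread between these arrays, which may be technical.

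CDK inhibitors hold the cell cycle back before DNA synthesis. INK4 proteins bind CDK4 and CDK6 and keep D-type cyclins from activating them, while Cip/Kip proteins bind whole cyclin-CDK complexes, above all those of CDK2. Both actions keep the RB protein unphosphorylated and E2F factors silent. In blood stem cells p57, p27 and p18 are known for their part in quiescence and in limiting self-renewal, and p16 and p19ARF are held silent by Polycomb proteins such as Bmi1.

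Values are log2 expression per probe set as deposited, after the array method RMA, and n is 2 for null and 1 for each wild-type fraction. Levels of different probe sets cannot be set against each other, so the markers below describe the arrays and do not check the labelled cell type. Kit levels lay between 10.11 and 10.77 and Cd34 between 9.77 and 10.58 on the 4 arrays. Of 8 measured lineage gate markers, 0 were 2-fold or more from the Flt3- wild-type array on both null arrays. Over all probe sets 0.252% were higher and 0.386% lower by as much. Cd4 read 5.03 and 4.98 on null replicates 1 and 2, 5.03 on the Flt3- wild-type array and 5.89 on the Flt3+ one. Itgam read 6.33, 5.81, 5.89 and 6.88 in the same order. Klrb1c differed the other way between the wild-type fractions, at -0.45 for LSK/Flt3+ minus LSK/Flt3-, and the median of the 8 was 0.11. What these markers mean for the comparison with LSK/Flt3+ cells was not tested. Sca-1 (Ly6a) had no probe set of its own and was not analysed here. The Flt3 transcript measured 7.84 and 7.02 on null replicates 1 and 2, 9.18 on the Flt3- wild-type array and 10.07 on the Flt3+ one. Hdac3 itself was at 5.71 and 5.04 on the null arrays, 6.18 on the Flt3- wild-type array and 6.33 on the Flt3+ one, and the sources used here do not say whether its probes lie in the deleted part. Array medians were 5.60 and 5.30 for null replicates 1 and 2 and 5.32 and 5.36 for the wild-type arrays. The number of arrays limits the precision.

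Cdkn1b and Cdkn2c were the members whose levels were lowest on the null arrays relative to both wild-type arrays. Between the null arrays and the wild-type LSK/Flt3- array the log2 difference was -1.69 ± 0.36 (SE) at Cdkn1b probe set 10542317, to 30.9% of the wild-type level, and -1.53 ± 0.37 (SE) at Cdkn2c, to 34.7%. Neither passed the limma test over all 21789 probe sets (adjusted p = 0.661 and 0.902), and 0 of the 7 member probe sets did. The second Cdkn1b probe set and the single ones of Cdkn1c, Cdkn2a, Cdkn2b and Cdkn2d lay between -0.43 and 0.33. In this comparison limma called 0.00918% of all probe sets higher and 0.00459% lower, so almost nothing on the array passed. By size alone, 2 of the 7 lay below the wild type by 2-fold or more on each null array, against 0.386% of all probe sets, and 0 of the 7 above it by as much, against 0.252%. At an unadjusted p under 0.05 the same 2 were lower, against 1.28% of all probe sets. Counted from both wild-type arrays at once, these 2 lay 2-fold or more below each on both null arrays, against 0.197%. Both genes were named for study with these values known, so the counts describe them and support nothing further.

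**Figure D1:**
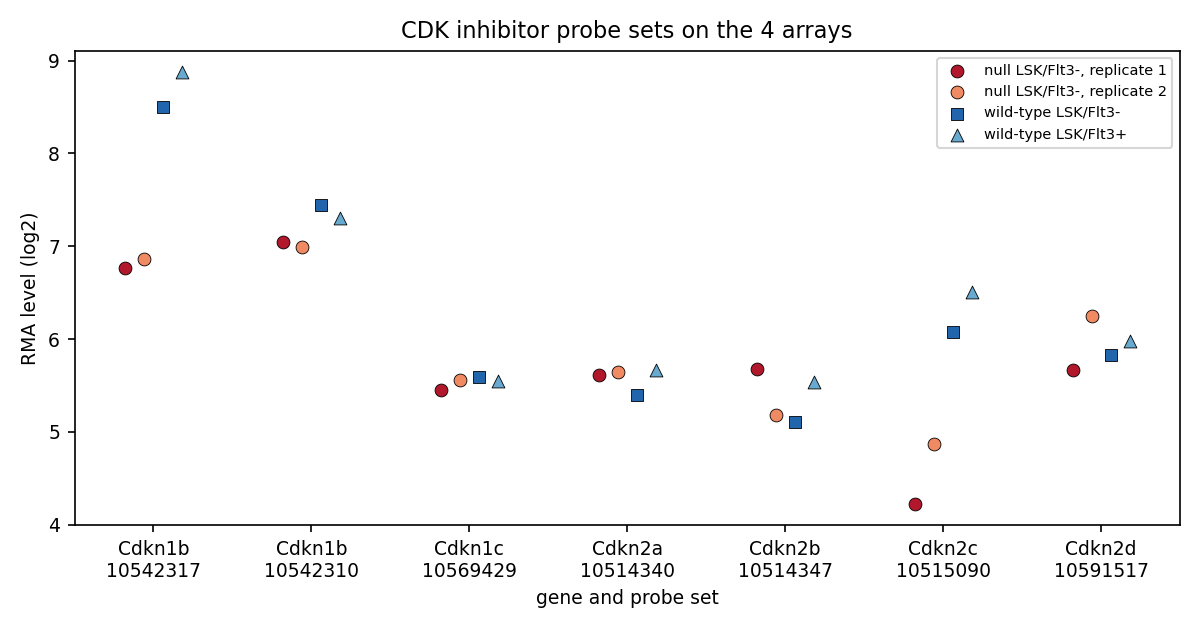
Deposited RMA level (log2, vertical axis) of each CDK inhibitor probe set with a single gene symbol (horizontal axis) on the 4 arrays, 1 symbol per array. At Cdkn1b probe set 10542317 and at Cdkn2c both null arrays lie at least 1.21 below either wild-type array, while for the other 5 probe sets the 4 arrays span at most 0.58. Heights of different probe sets cannot be compared.

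The stretches before the start sites of these 2 genes are shown because their RNA levels stood lower together. They are the 250 bases before the annotated start, from RefSeq on the build GRCm38.p6, read 5′ to 3′ on the gene's own strand. Cdkn1b lies on the plus strand at chr6:134920151-134920400 and Cdkn2c on the minus strand at chr4:109666757-109667006. Capitals mark CCAAT, the CCAAT box, and GGGCGG, the GC box, on either strand.

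Cdkn1b: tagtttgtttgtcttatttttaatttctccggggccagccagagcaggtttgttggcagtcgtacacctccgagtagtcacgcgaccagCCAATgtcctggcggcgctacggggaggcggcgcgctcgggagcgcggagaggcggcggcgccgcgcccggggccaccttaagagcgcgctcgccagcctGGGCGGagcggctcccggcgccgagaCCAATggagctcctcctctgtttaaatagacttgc
Cdkn2c: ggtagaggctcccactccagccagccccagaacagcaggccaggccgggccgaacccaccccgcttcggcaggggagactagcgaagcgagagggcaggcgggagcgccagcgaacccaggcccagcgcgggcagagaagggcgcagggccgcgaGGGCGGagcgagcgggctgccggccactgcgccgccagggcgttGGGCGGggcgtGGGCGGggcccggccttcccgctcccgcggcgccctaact

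The Cdkn1b window held CCAAT at -161 and -35 from the start site and GGGCGG at -61. The printed Cdkn2c window held GGGCGG at -95, -51 and -40 and no CCAAT. RefSeq gives Cdkn2c a second start, whose window (chr4:109665373-109665622) is not printed and held neither motif. The window printed for Cdkn2c is that of the start farther upstream, picked with both sequences known. G and C made up 64.4% of the Cdkn1b window, 77.2% of the printed Cdkn2c window and 42.8% of the other one, against a median of 52.4% over 32851 windows of the same length. CG pairs numbered 28, 29 and 6 in turn, against a median of 6. GGGCGG occurs in 32.7% of all windows and CCAAT in 33.8%. Of the 9 windows of member genes, GGGCGG was in 5, of Cdkn1a, Cdkn1b, Cdkn2a, Cdkn2c and Cdkn2d. CCAAT was in 2, of Cdkn1b and Cdkn2d. Neither motif was thus confined to the 2 genes printed. Further motifs, searched on both strands, were found in 0 of the 9 windows that the table holds for 6 of the 7 genes: TGTTTAC, bound by FOXO factors (3.17% of all windows), CACGTG, the E-box (6.02%), TTTGGCGC or TTTCGCGC, bound by E2F (0.654%), and TATAAA, the TATA box (12.4%). The searched motifs do not overlap one another in these windows. A match is a description of the letters, and an absence says only that these letters are not in the window.

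Among the Cip/Kip members, Cdkn1b encodes p27, which binds cyclin E-CDK2 and delays entry into S phase. Its probe set 10542317 read 6.76 and 6.86 on null replicates 1 and 2, 8.50 on the Flt3- wild-type array and 8.87 on the Flt3+ one. The null arrays were close to each other (mean 6.81 ± 0.07, SD, n = 2) and both lay far below the wild-type ones. Its difference from LSK/Flt3- cells was -1.74 and -1.64 on null replicates 1 and 2, with a limma 95% interval for the mean of -2.51 to -0.87 and an unadjusted p of 0.00116. That difference was the 26th lowest of 21789.

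The other Cdkn1b probe set, 10542310, gave a smaller difference. Its level read 7.05 and 6.99 on null replicates 1 and 2, 7.44 on the Flt3- wild-type array and 7.30 on the Flt3+ one. The null arrays were again both lowest, but the log2 difference from LSK/Flt3- cells was -0.43 ± 0.36 (SE), with a 95% interval of -1.24 to 0.39 (limma, adjusted p = 1). The annotation lists 6 transcript accessions for 10542310 and 2 for 10542317, and 1, the RefSeq transcript, is common to both. With the mean of both probe sets in place of 10542317, the Cdkn1b difference went from -1.69 to -1.06 (adjusted p = 1).

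The probe sets thus gave Cdkn1b differences of unlike size, and that gap was tested directly. The within-array difference of 10542317 minus 10542310 was -0.28 and -0.13 on null replicates 1 and 2, 1.06 on the Flt3- wild-type array and 1.57 on the Flt3+ one. The sign of one such value means nothing, since 2 probe sets differ in how brightly they report, but its change between arrays compares how the pair moved. Between null and wild-type LSK/Flt3- cells the change was -1.27 ± 0.18 (SE; 95% interval -1.98 to -0.55), the 9th largest in size of 999 genes with more than 1 probe set. Its unadjusted p was 0.0155 and its adjusted p 1 over the 999 genes in a limma fit chosen after these values were seen. Against LSK/Flt3+ cells it was -1.78 ± 0.18 (SE; adjusted p = 1), the 3rd largest. In both fits 0 of the 999 genes passed. What differs between the RNAs the probe sets report was not tested.

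**Figure D2:**
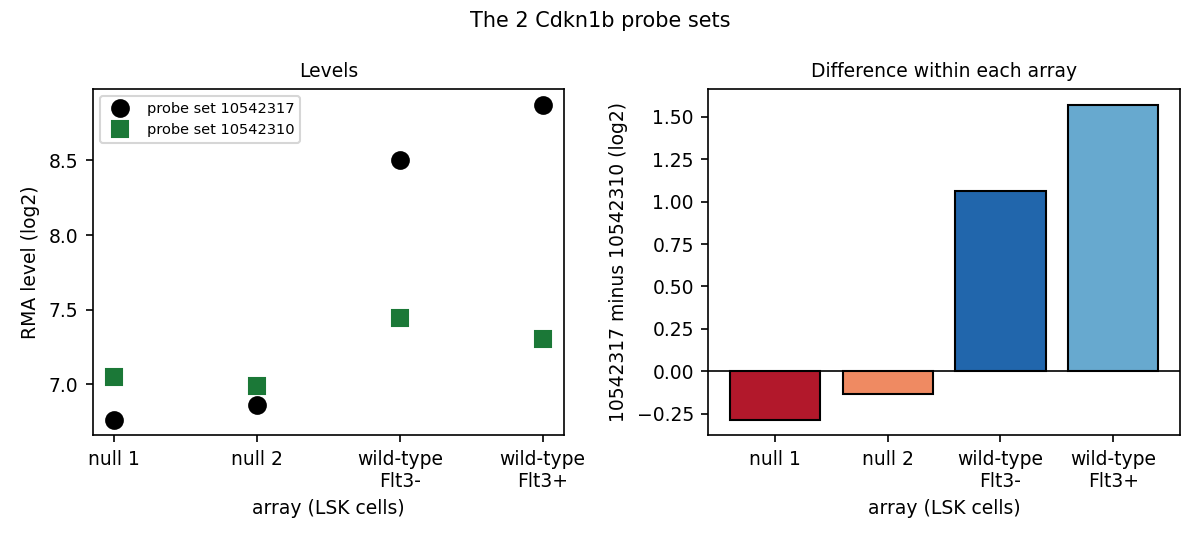
Left, RMA level (log2) of the 2 Cdkn1b probe sets on each array, circles for 10542317 and squares for 10542310. Right, 10542317 minus 10542310 within each array (log2), which runs from -0.28 on null replicate 1 to 1.57 in wild-type LSK/Flt3+ cells, with both null arrays below both wild-type arrays. Bars are single arrays and carry no error.

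Cdkn1c, an imprinted gene whose product p57 is known for keeping stem cells quiescent, hardly varied. It read 5.45 and 5.55 on null replicates 1 and 2, 5.59 on the Flt3- wild-type array and 5.54 on the Flt3+ one, and null replicate 2 lay between the wild-type arrays. Its difference from LSK/Flt3- cells was -0.09 ± 0.32 (SE), with a 95% interval of -0.81 to 0.64. That interval holds changes of more than 1.5 times in either direction, so a modest change was not detectable here. The sources used here do not say whether any member stood above background.

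Cdkn1a encodes p21, the inhibitor that p53 switches on after DNA damage. Its probe set 10443463 is listed for 4930567H12Rik too, so its level cannot be given to either gene and it entered no comparison of single-symbol probe sets. Its level read 7.35 and 7.14 on null replicates 1 and 2, 5.83 on the Flt3- wild-type array and 6.84 on the Flt3+ one. Both null arrays were above both wild-type arrays, the opposite side from Cdkn1b.

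Of the INK4 members, Cdkn2c encodes p18, an inhibitor of CDK4 and CDK6. The gene read 4.23 and 4.87 on null replicates 1 and 2, 6.07 on the Flt3- wild-type array and 6.50 on the Flt3+ one. The null arrays differed more here than at Cdkn1b (mean 4.55 ± 0.45, SD, n = 2), yet both lay below either wild-type array. Its difference from LSK/Flt3- cells was -1.85 and -1.21 on the 2 null arrays, with a 95% interval for the mean of -2.35 to -0.70 and an unadjusted p of 0.00240 (limma). It was the 39th lowest difference of 21789. Both null readings of Cdkn2c lay under the medians of their arrays (5.60 and 5.30). The sources used here do not say whether they stood above background, so the size of the difference is uncertain. With array medians made equal before the fit, Cdkn2c was called lower (-1.66, adjusted p = 6.33e-05), and in that fit the prior degrees of freedom were infinite, so every probe set was given the spread expected at its mean level.

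The other INK4 genes showed no such gap. Cdkn2a, whose p16 and p19ARF products act on CDK4/6 and on the p53 pathway, read 5.61 and 5.64 on null replicates 1 and 2, 5.40 on the Flt3- wild-type array and 5.67 on the Flt3+ one. Its difference from LSK/Flt3- cells was 0.23 ± 0.32 (SE), and its single probe set does not separate the 2 products. Cdkn2b, which encodes the CDK4/6 inhibitor p15 next to Cdkn2a on the chromosome, was at 5.68 and 5.18 on the null arrays, 5.10 in LSK/Flt3- and 5.54 in LSK/Flt3+ cells, with a difference of 0.33 ± 0.35 (SE). Cdkn2d, which encodes another CDK4/6 inhibitor, was at 5.67 and 6.25 on the null arrays, 5.83 in LSK/Flt3- and 5.98 in LSK/Flt3+ cells, with a difference of 0.13 ± 0.37 (SE). The null replicates were 0.51 apart for Cdkn2b and 0.58 apart for Cdkn2d, more than the mean difference of either from the Flt3- wild-type array. The 95% intervals of these 3 genes reached from -0.72 to 1.11 in all.

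The same null arrays were then set against wild-type LSK/Flt3+ cells, a comparison that holds the difference of sorted fraction as well as that of genotype and shares its null arrays with the first. Cdkn1b probe set 10542317 was at -2.06 ± 0.36 (SE; 95% interval -2.88 to -1.24) and Cdkn2c at -1.96 ± 0.37 (SE; 95% interval -2.78 to -1.13), 23.9% and 25.8% of the LSK/Flt3+ level. Neither passed limma (adjusted p = 0.0902 and 0.114, unadjusted p = 0.000297 and 0.000462), in a comparison where 0.0321% of all probe sets were called higher and 0.229% lower. By size, the same 2 of 7 lay 2-fold or more below on each null array, against 1.02% of all probe sets, and the same 2 had an unadjusted p under 0.05, against 2.09%. With robust estimation of the spread both were called lower (limma, adjusted p = 0.0222 for each). Both were also called with array medians made equal (limma, adjusted p = 0.0147 for Cdkn1b and 1.36e-08 for Cdkn2c). In that fit the prior degrees of freedom were infinite, so a probe set's own spread between the null arrays did not count. Cdkn2c read lower on the null array with the higher median, so equal medians widened its gap between the null arrays. Cdkn1b probe set 10542310 was at -0.29 ± 0.36 (SE). Cdkn1c, Cdkn2a, Cdkn2b and Cdkn2d lay between -0.11 and -0.03, and their 95% intervals reached from -0.89 to 0.81 in all.

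**Figure D3:**
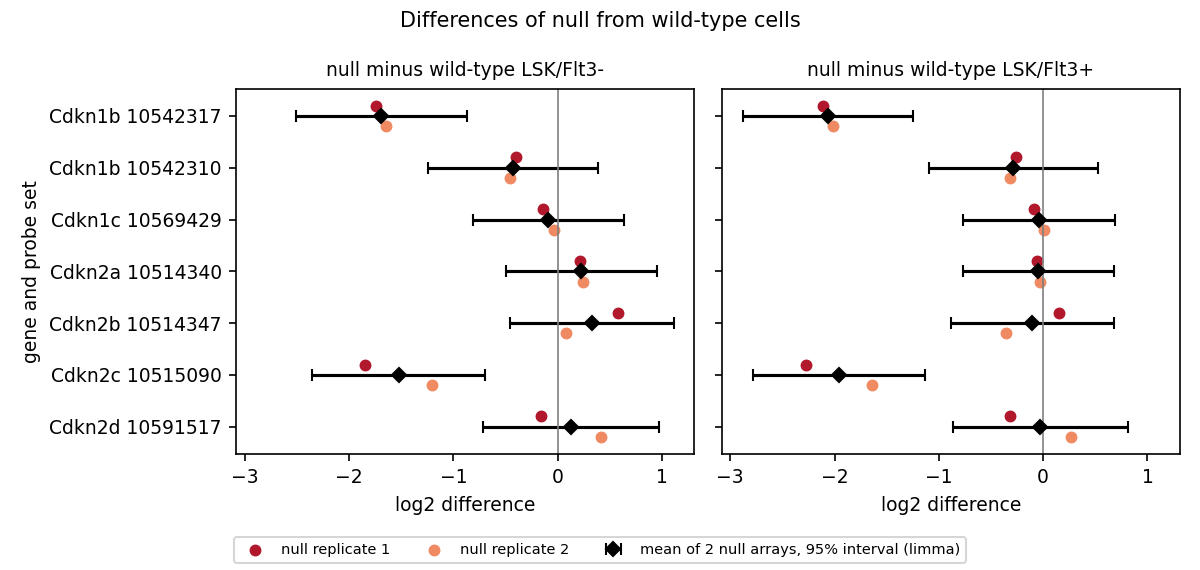
Log2 difference (horizontal axes) of null from wild-type LSK/Flt3- cells, left, and from wild-type LSK/Flt3+ cells, right, for each member probe set. Coloured points are the 2 null arrays, diamonds their mean and bars the limma 95% interval, which borrows its spread from all probe sets. Only the intervals of Cdkn1b 10542317 and of Cdkn2c lie wholly below 0 in each panel. The intervals are not adjusted for the 21789 probe sets tested.

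Between the 2 wild-type fractions, which have 1 array each and so no replicate check, the members differed little. Cdkn2b and Cdkn2c were each 0.43 higher in LSK/Flt3+ than in LSK/Flt3- cells, Cdkn1b probe set 10542317 was 0.37 higher and Cdkn2a 0.27 higher. Cdkn2d was 0.15 higher, Cdkn1c 0.05 lower, at -0.05, and Cdkn1b probe set 10542310 at -0.14. None of the 7 was 2-fold apart, against 0.872% of all probe sets higher and 0.202% lower in LSK/Flt3+ cells. The median of the 7 was 0.27, beside 0.04 over all probe sets. Cdkn1b at 10542317 and Cdkn2c thus shared 1 order of levels, null lowest, then LSK/Flt3-, then LSK/Flt3+. At Cdkn2c the last step, 0.43, was smaller than the gap of 0.64 between the null arrays. At Cdkn1b 10542317 that step was 0.37, beside -0.10 for null replicate 1 minus 2, but no wild-type fraction had a replicate.

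Over the 7 probe sets the median difference was -0.09 from LSK/Flt3- cells, with 3 higher and 4 lower, and -0.11 from LSK/Flt3+ cells, with 7 lower. Over all probe sets the median was 0.09 and 0.04. Per gene, at the probe set of highest mean, 12969 of 19938 were higher and 6968 lower against LSK/Flt3- cells. Against LSK/Flt3+ cells 11344 were higher and 8593 lower. With array medians made equal, the all-probe-set median moved to -0.05 in both, a shift that every difference here shares.

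The kinases and cyclins that these inhibitors bind lay between -0.89 and 0.47 from the Flt3- wild-type array, beside -1.69 to 0.33 for the inhibitors. Of the 5 genes of D-type cyclins and CDK4/6, the partners of INK4 proteins, 3 were higher on the null arrays than on the Flt3- wild-type array. The other 2 were lower, and the median was 0.07, beside 0.09 over all 19938 genes. Of all genes 12969 were higher and 6968 lower, shares that stand beside the list counts below as well. Cdk6 was at 0.26, Cdk4 at 0.08, Ccnd3 at 0.07, Ccnd2 at -0.10 and Ccnd1 at -0.49. On the null arrays Ccnd1 was at 5.85 and 6.67, against 6.75 in LSK/Flt3- and 7.004 in LSK/Flt3+ cells. Of 7 measured genes for CDK2, CDK1 and their cyclins, the partners of Cip/Kip proteins, 3 were higher and 4 lower, with a median of -0.21. Ccne1, which encodes cyclin E1, the partner of CDK2 that p27 restrains, was at 6.77 and 6.68 on the null arrays, 7.62 in LSK/Flt3- and 6.94 in LSK/Flt3+ cells. Its difference from LSK/Flt3- cells was -0.89 (limma, unadjusted p = 0.0345, adjusted p = 1). Cdk1, the mitotic kinase, was at 0.47 and Cdk2 at -0.21.

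None of these kinase and cyclin genes passed limma in either comparison, and neither did any of the 13 genes of the RB and E2F families, of which 3 were higher and 10 lower with a median of -0.07. Tfdp1, the dimer partner of E2F factors, was at 0.56 and E2f5, a repressive E2F, at -0.40. Among 14 proliferation markers 6 were higher and 8 lower, with a median of -0.04, Tyms of thymidylate synthesis at 0.40, and Mcm6 of the replicative helicase at 0.28. Of 8 other CDK regulators 5 were higher and 3 lower (median 0.09), and Wee1, the kinase that inhibits CDK1, was at -0.30 and the phosphatase gene Cdc25a at 0.14. Of these RB, E2F, marker and regulator genes, 0 had an unadjusted p under 0.05 against LSK/Flt3- cells. Over all 19938 genes 206 were higher and 246 lower at that limit, so a count of 0 in short lists says little. Against LSK/Flt3+ cells 1 gene of the RB and E2F list had such a p, Tfdp1 at 0.77 (limma, unadjusted p = 0.0408).

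The lists for p27 turnover and for regulators of CDK inhibitor genes had 10 and 22 measured genes. Of these, 0 were 2-fold or more from the Flt3- wild-type array on both null arrays. Over all 19938 genes 50 were higher and 76 lower by as much. The listed genes Skp1a and Trp53 were not analysed here. Of 10 genes for p27 turnover, 3 were higher and 7 lower with a median of -0.14. Skp2, the ubiquitin ligase subunit that marks p27 for degradation, was at 0.18 and its cofactor Cks1b at -0.15. Ubac1 and Uhmk1, the latter a kinase that sends p27 out of the nucleus, were at -0.46 and -0.37. Of 22 regulators of CDK inhibitor genes, 10 were higher and 12 lower with a median of -0.03. Foxo1 and Foxo3, transcription factors that activate Cdkn1b, were at -0.49 and 0.04. The Polycomb genes Bmi1 and Ring1, of the complex that silences Cdkn2a, were at -0.32 and -0.40. Other Polycomb genes on the list went both ways, with Rnf2 at -0.35, Cbx7 at 0.13 and Ezh2 at 0.14. None of the turnover genes or regulators passed limma against either wild-type fraction, and 0 had an unadjusted p under 0.05 against LSK/Flt3- cells. Over all 19938 genes 206 were higher and 246 lower at that limit, so a count of 0 in short lists says little. Against LSK/Flt3+ cells 1 regulator had such a p, Mycn at 0.87 (limma, unadjusted p = 0.0380). Foxo1 stood at 5.91 and 5.78 on the null arrays, 6.33 in LSK/Flt3- and 6.43 in LSK/Flt3+ cells. Foxo3 stood at 7.17 and 7.53 on the null arrays, 7.31 in LSK/Flt3- and 7.44 in LSK/Flt3+ cells. Any link of either gene to the level of Cdkn1b was not tested. RNA levels do not show the amount of p27 protein, which is set largely by degradation.

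**Figure D4:**
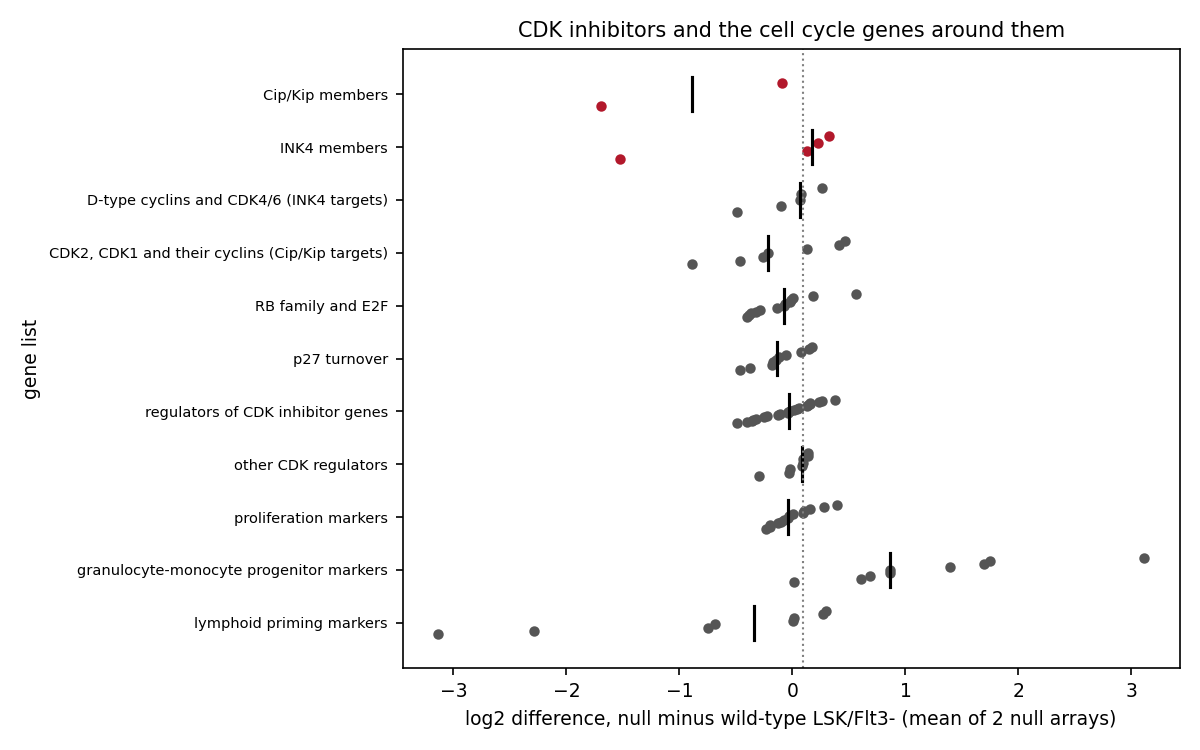
Log2 difference of null from wild-type LSK/Flt3- cells (horizontal axis, mean of the 2 null arrays) for the genes of each list (vertical axis), 1 point per gene at its probe set of highest mean, red for the CDK inhibitors. Black ticks are list medians and the dotted line is the median over all genes, 0.09. Cdkn1b (-1.69) and Cdkn2c (-1.53) lie outside the range of the other 7 cell cycle lists, -0.89 to 0.56. Cdkn1b is drawn at probe set 10542317, whose mean is the higher one only through the wild-type arrays. Its other probe set, 10542310, is not drawn and at -0.43 lies inside that range. The 2 lists at the bottom hold granulocyte-monocyte progenitor markers, from 0.01 to 3.11, and lymphoid priming markers, from -3.14 to 0.30. These reach farther from 0 than the 2 inhibitors.

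Genes with the profile most like Cdkn1b over the 4 arrays were sought among 8184 named genes with a mean level of at least 6, by the Euclidean distance between levels centred on their mean. The closest was Rgs1, a regulator of G protein signalling, at a distance of 0.13, followed by the activation marker Cd69 (0.31), the tropomyosin gene Tpm2 (0.31), Tanc2 (0.39) and Camsap2 (0.44). Cdkn2c lay at 0.41 from Cdkn1b but was not among those sought, since its mean level of 5.42 is under 6. Rgs1 stood at 7.77 and 7.73 on the null arrays, 9.38 in LSK/Flt3- and 9.70 in LSK/Flt3+ cells. For Cdkn2c the closest were Tpm2 (0.31), Cox6b2 (0.39), Cdkn1b itself (0.41), Stk17b (0.48) and Rgs1 (0.49). With 4 arrays many genes can share such a profile, and no test goes with it.

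Levels of markers of other cell types differed between the same arrays, and their part in the values of Cdkn1b and Cdkn2c was not tested. In a bulk sample, fewer cells of a type and less RNA per cell cannot be told apart. Of 9 measured granulocyte-monocyte progenitor markers, 9 were higher on the null arrays than on the Flt3- wild-type array (median 0.87). Of these, Csf1r was higher by only 0.01, and at -0.18 on null replicate 1. Against LSK/Flt3+ cells 7 of the 9 were higher and 2 lower, Csf1r at -2.34 and Fcgr3 at -0.62. From the Flt3- wild-type array, 12969 of all 19938 genes were higher and 6968 lower (median 0.09). Of 8 lymphoid priming markers 4 were higher and 4 lower (median -0.34). Dntt, the lymphoid DNA polymerase, stood at 5.83 and 4.56 on the null arrays, 8.33 in LSK/Flt3- and 10.14 in LSK/Flt3+ cells, the same order as Cdkn1b and Cdkn2c. Of 6 mast cell and basophil markers 5 were higher (median 1.23), of 7 erythroid markers 2 were higher and 5 lower (median -0.16), and of 5 megakaryocyte markers 3 were higher (median 0.13). The erythroid gene Car1 read 6.44 and 10.92 on null replicates 1 and 2 and 11.81 in LSK/Flt3- cells, so the null arrays differ in that marker far more than in Cdkn1b. The 8 endothelial and stromal markers had a median of 0.09 with Emcn at -1.98, the 8 lineage gate markers 0.09, and the 6 LSK gate and stem cell markers -0.10. Of these 6, 3 were higher and 3 lower, with the stem cell surface gene Slamf1 at 2.18 and Procr and Kit at 0.37 and 0.32, and with Flt3 at -1.75, the stem cell transcription factor gene Mecom at -1.32 and Cd34 at -0.51. None of these markers passed limma against LSK/Flt3- cells. Against LSK/Flt3+ cells Slamf1 and Ms4a3 were called higher and Csf1r, Dntt, Satb1, Il7r and Emcn lower, with limma adjusted p from 0.00778 for Dntt to 0.0471 for Csf1r.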

How the data were processed

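Deposited log2 levels were used as the authors gave them, made with affy 1.23 and the RMA method (per the submitters' processing notes), on 4 arrays of labelled total RNA. The sources used here name no genome build, scan date or detection call. Of 35556 probe sets the platform annotation gave 21789 a single gene symbol, 1621 several and 12146 none. All 21789 entered 1 fit with limma 3.58.1 in R 4.3.3 with 3 groups and a mean-dependent prior. The spread comes from the null pair (residual degrees of freedom 1, prior degrees of freedom 7.98), and the lone wild-type arrays are taken to vary like them. Tests were two-sided, with Benjamini-Hochberg adjustment over all 21789 at 0.05, and the median SE of a null difference was 0.34. Differences are null minus wild type. Gene lists took 1 probe set per gene, that of highest mean. Members, lists and tests were chosen with earlier results of these data known. Named were all members, the genes in each cell cycle list farthest from 0, direct partners of a member, the 5 nearest profiles, and others after their values were seen. Promoter windows came from RefSeq, GRCm38.p6. Alternatives changed the variance model, scaling, filter, choice of probe sets and grouping.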

Additional observations from a re-analysis of the deposited data

Results flagged for a closer look

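The probe set listed for both Cdkn1a and 4930567H12Rik, which entered none of the comparisons of single-symbol probe sets, stood higher on both null arrays than on either wild-type array. Its log2 difference from wild-type LSK/Flt3- cells was 1.42 ± 0.38 (SE; 95% interval 0.38 to 2.46), at 1.52 and 1.31 on null replicates 1 and 2, in the limma fit over all 35556 deposited probe sets (unadjusted p = 0.0188, adjusted p = 1). From wild-type LSK/Flt3+ cells it was 0.40 ± 0.38 (SE; 95% interval -0.64 to 1.44; adjusted p = 1), and the wild-type fractions themselves were 1.02 apart. Which of the 2 genes gave this signal was not tested.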

How the results depend on the processing

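Cdkn1b and Cdkn2c kept their negative sign under all 10 and 9 other settings that gave them a value. Of these, settings that changed only the variance model, the filter or which probe sets were tested could not alter a difference. Nor could averaging probe sets for Cdkn2c, which had a single one. For those settings the sign was fixed in advance. The settings for Cdkn1b used probe set 10542317, except that 1 took the mean of both its probe sets (-1.06 against LSK/Flt3- and -1.17 against LSK/Flt3+ cells). Cdkn2c had no value with a mean level of at least 6. With both wild-type arrays as 1 group, the same fit is counted in both comparisons. Against wild-type LSK/Flt3- cells the adjusted p of Cdkn1b ranged from 0.133 to 1 and that of Cdkn2c from 6.33e-05 to 1. Against wild-type LSK/Flt3+ cells they ranged from 0.0147 to 1 and from 1.36e-08 to 1. The calls gained were Cdkn2c against LSK/Flt3- cells with equal array medians (-1.66, so 1 member was called), and both genes against LSK/Flt3+ cells, 2 members, with equal medians (-2.15 and -2.05) and with robust estimation (-2.06 and -1.96). The lowest adjusted p of Cdkn2c in each comparison came from equal medians. In that fit the prior degrees of freedom were infinite, so a probe set's own spread between the null arrays did not count. Probe sets called over the whole array went from 3 against LSK/Flt3- cells to 19 with robust estimation, 122 with equal medians, 5 with both wild-type arrays as 1 group and 0 with all deposited probe sets tested. They went from 57 against LSK/Flt3+ cells to 98, 276, 5 and 0 in turn, to 96 after cyclic loess and to 19 with a mean level of at least 6. With all deposited probe sets tested, more features share the adjustment, but unadjusted limma p-values against LSK/Flt3- cells were higher too. That of Cdkn1b went from 0.00116 to 0.00927 and that of Cdkn2c from 0.00240 to 0.0220. At that setting the prior degrees of freedom were 3.24, against 7.98 in the main fit. The cause of the changes in the number of calls was not tested at any setting. With 1 null array left out no residual degree of freedom is left and values carry no test: Cdkn1b ranged from -1.74 to -1.64 against LSK/Flt3- and from -2.11 to -2.01 against LSK/Flt3+ cells, and Cdkn2c from -1.85 to -1.21 and from -2.28 to -1.64. Signs turned for uncalled members only: Cdkn2d against LSK/Flt3- cells with equal medians (-0.0086) and without a null replicate (-0.16 to 0.42), and against LSK/Flt3+ cells Cdkn2a (0.089), Cdkn2b (0.11) and Cdkn2d (0.050) with both wild-type arrays as 1 group, and without a null replicate Cdkn1c (-0.090 to 0.011), Cdkn2b (-0.36 to 0.15) and Cdkn2d (-0.32 to 0.26). No paired analysis was possible because the wild-type groups have 1 array each and share no second replicate number with the null group.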
